A study of Mus musculus with 36 samples.

Results

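The genes described here are 9 regulators of the G1 phase of the cell cycle: the cyclin-dependent kinase inhibitor genes Cdkn1a, Cdkn1b, Cdkn1c, Cdkn2a and Cdkn2b, the D-type cyclin genes Ccnd1, Ccnd2 and Ccnd3, and the transcription factor gene Myc. They were taken by name from the 18193 genes that had a probe set paired with their symbol alone. Each gene is represented by its brightest probe set, the one with the highest mean over the 36 arrays. Of the 9 genes, 7 passed a filter that kept the brighter 60% of probe sets and were tested, and Cdkn2a and Cdkn2b fell below it. The filter used the mean over all arrays and not any group. Myc passed it through the arrays where it is high, since most of its shared control signals lie below the filter level.

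D-type cyclins bind Cdk4 and Cdk6 and carry mitogen signals into the phosphorylation of the retinoblastoma protein, which releases E2F factors and opens the way to S phase. Inhibitors of the Ink4 family (Cdkn2a, Cdkn2b) bind Cdk4 and Cdk6 directly, and those of the Cip/Kip family (Cdkn1a, Cdkn1b, Cdkn1c) bind several cyclin-kinase complexes. Myc drives genes of ribosome assembly and growth, and adult heart muscle cells are known for growing in size while rarely dividing.

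RNA of the cardiac left ventricle was hybridised to Affymetrix arrays, with 1 sample per array. Transgenic mice carried 1 of 3 floxed transgenes (HRas-v12, MKK3bE or MKK7D) together with Mer-Cre-Mer, a tamoxifen-activated Cre, and both transgenes were driven by the alpha myosin heavy chain promoter of heart muscle cells. HRas-v12 is an active form of the GTPase Ras, MKK3bE an active kinase of the p38 arm and MKK7D an active kinase of the JNK arm. All mice were on a C57 black background and were injected with 20 mg/kg tamoxifen daily for 3 days at 12 weeks of age, the controls being littermates without transgenes.

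Early hearts were taken 4 to 7 days and late hearts 2 to 4 weeks after the first injection. The HRas-v12 line had 2 female and 3 male early arrays and 3 arrays of each sex late. The MKK3bE line had 2 early female arrays, 2 late female arrays and 3 late male arrays. The controls of both lines were the same 3 female and 3 male arrays, which carry no time point in the labels, so comparisons of these lines share their controls. The MKK7D line was all female, with 3 transgenic arrays and 3 controls of its own at each time. By the labels, controls lack Mer-Cre-Mer as well as the floxed transgene. Where the labels hold, the effects of the transgene and of Cre cannot be told apart in a comparison with control. The Esr1 signal of MKK7D late control replicates 8 and 9, described below, goes against their labels.

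RefSeq promoter windows of the build GRCm38.p6 covered 5 of the 9 genes (Cdkn1a, Cdkn1b, Cdkn2a, Cdkn2b and Ccnd3). The windows of Cdkn1a are shown because it had the largest change among the inhibitors. Cdkn1a has an upstream and a downstream start, and each window holds the 250 bases before the start on the plus strand, at chr17:29090729-29090978 and chr17:29093519-29093768. Capitals mark motif matches.
Cdkn1a upstream start: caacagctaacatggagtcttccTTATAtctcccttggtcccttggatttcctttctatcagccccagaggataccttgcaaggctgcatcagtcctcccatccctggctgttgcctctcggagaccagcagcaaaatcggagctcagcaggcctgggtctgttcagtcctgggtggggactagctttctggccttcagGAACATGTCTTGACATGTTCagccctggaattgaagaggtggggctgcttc
Cdkn1a downstream start: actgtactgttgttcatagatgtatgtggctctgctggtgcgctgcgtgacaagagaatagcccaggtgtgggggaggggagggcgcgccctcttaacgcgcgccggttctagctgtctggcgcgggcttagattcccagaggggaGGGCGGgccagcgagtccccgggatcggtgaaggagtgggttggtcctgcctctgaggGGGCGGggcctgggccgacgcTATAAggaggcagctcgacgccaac
The capitals near the end of the first sequence, 51 to 32 bases before the start, match the p53 consensus without a spacer at all but 1 base. Such a match, with at most 1 mismatch, was found in 0.0762% of the 32817 RefSeq windows. The earlier capitals in that sequence are TATAA read on the minus strand, 227 to 223 bases before the start. The second sequence holds 2 GC boxes (GGGCGG), at 104 to 99 and at 46 to 41 bases before the start, and TATAA at 25 to 21 bases. GGGCGG was found in 32.7% of windows and TATAA in 22.8%, both strands searched. The E-box CACGTG and the AP-1 motif TGANTCA were not in either sequence and were found in 6.02% and 6.75% of windows. A match describes letters and not binding.

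Some arrays stood apart from their labels. Esr1 is the estrogen receptor gene whose modified ligand-binding part is fused to Cre in Mer-Cre-Mer. Its probe set had a signal of 12437 to 155949 in 21 of the 24 transgenic arrays, the early HRas-v12 males being lowest (12437 to 21172). Shared controls read 294 to 832 except female replicate 2, at 7943. MKK7D early controls 1 and 2 read 7288 and 3506. The Esr1 signal stood at 688 on HRas-v12 female early replicate 3, as labelled, and at 2915 and 1327 on those labelled HRas-v12 male late replicates 1 and 3. On the arrays labelled MKK7D late control replicates 8 and 9 it stood at 106402 and 91291, against 953 on replicate 10. Xist and Eif2s3y matched the labelled sex on 35 of 36 arrays, the exception being the array labelled MKK7D early control replicate 1. These 6 arrays stayed in, and results that rest on them are given with and without them. Without them 1 array is left in the groups of early HRas-v12 females, late HRas-v12 males and MKK7D late controls. Leaving out either early HRas-v12 female also leaves 1 array in that group. No MKK3bE or shared control array is among the 6. Without the 6, MKK3bE changes against control therefore stay the same, and only their p-values differ. Cardiomyocyte markers such as Myh6 and Tnnt2 were among the brightest genes on every array (lowest signals 119266 and 112432).

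Against control, 3 of the 7 tested genes were called in early HRas-v12 hearts, where 33.8% of all 12626 genes tested were called (15.1% higher, 18.7% lower). A gene was called when its adjusted p in limma was under 0.05. In late HRas-v12 hearts 1 of 7 was called beside 9.52% of all genes (4.86% higher, 4.66% lower). In early MKK3bE hearts 1 of 7 was called beside 6.26% (3.48% higher, 2.78% lower), and in late MKK3bE hearts 2 of 7 beside 10.4% (5.06% higher, 5.39% lower). In the MKK7D line limma called 0 of 7 at both times, beside 0.135% of all genes early and 0% late, and 2 genes early and 0 late had an unadjusted p under 0.05. The share in early HRas-v12 hearts, 42.9%, is near the background of that comparison, and with 7 genes the shares move in coarse steps. The calls fell on Cdkn1a, Cdkn1c, Ccnd2 and Myc.

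**Figure D1:**
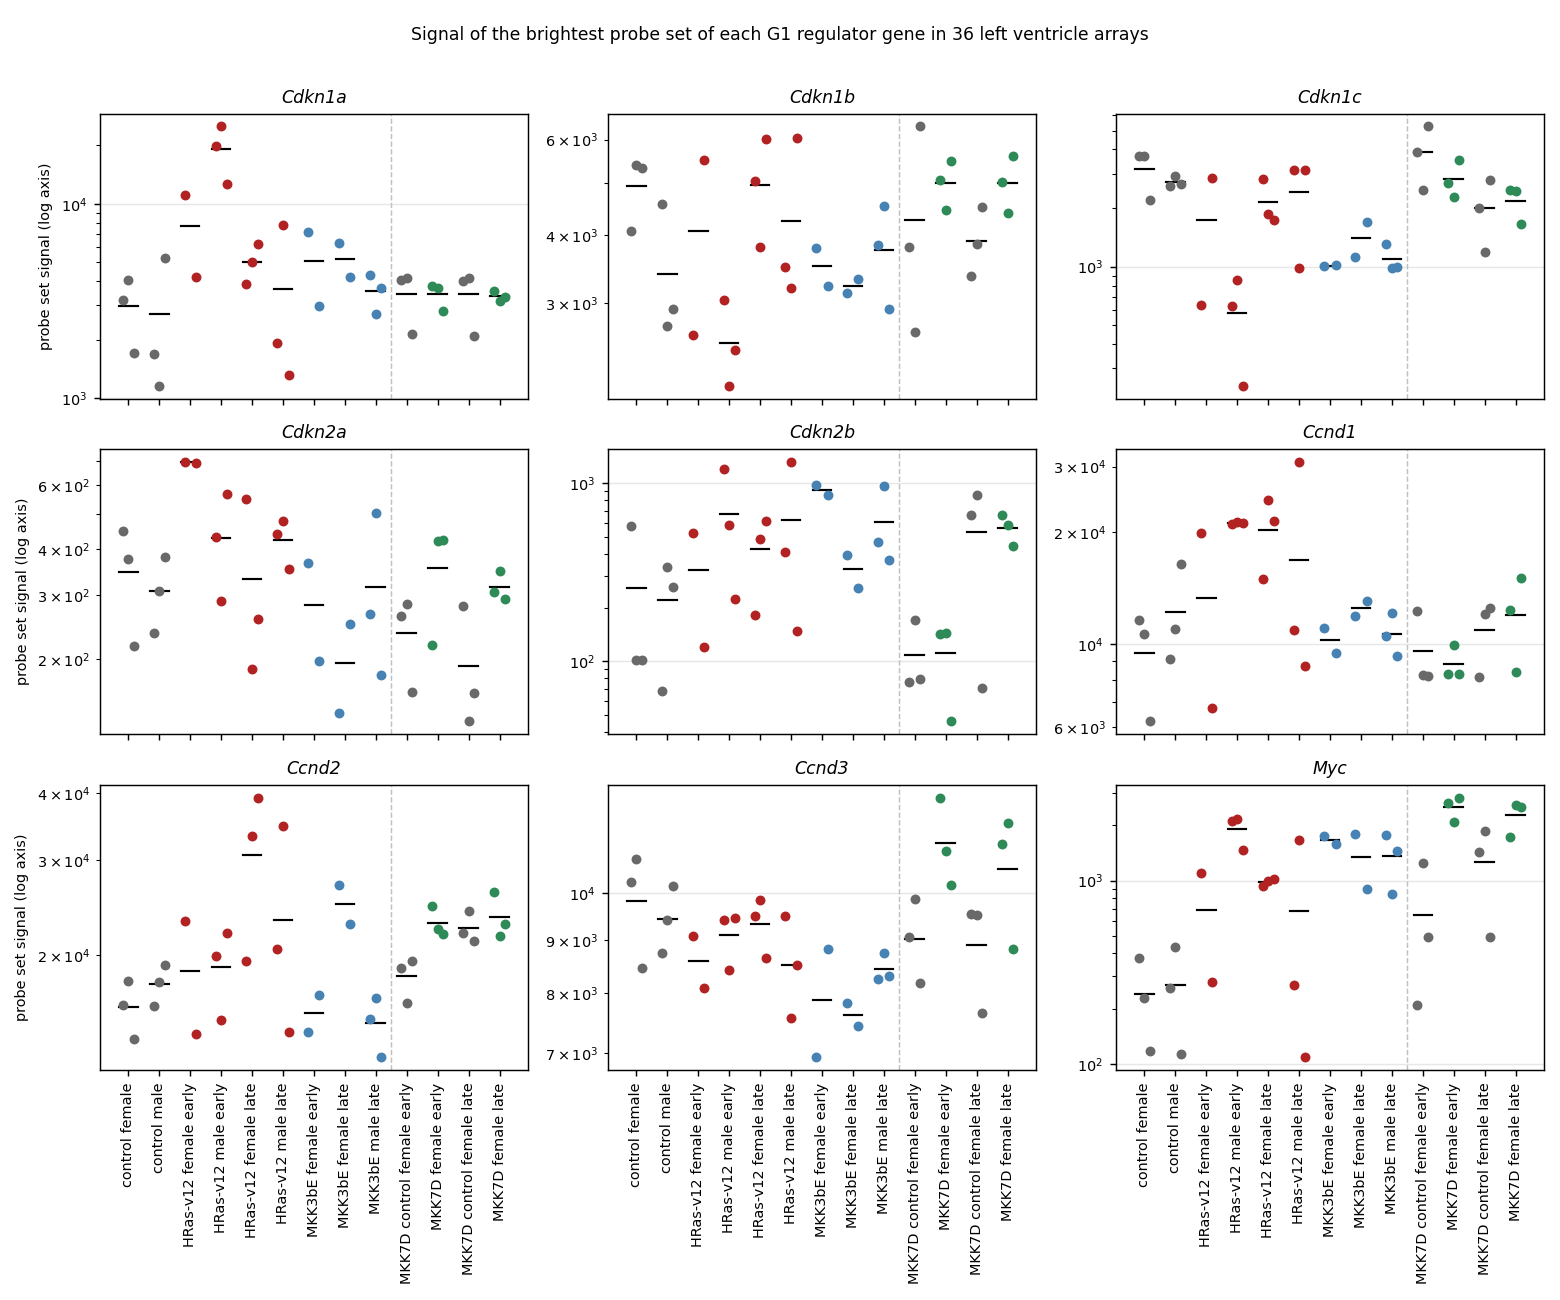
Probe set signal (log axis) of each of the 9 genes on the 36 arrays, by titled group. Points are single arrays and bars are group means. Grey points are controls, red HRas-v12, blue MKK3bE and green MKK7D, and groups right of the dashed line belong to the MKK7D line with its own controls. The early male HRas-v12 group has the highest mean for Cdkn1a (arrays 12683 to 24995) and the lowest for Cdkn1c (245 to 855).

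Among the Cip/Kip inhibitors, Cdkn1a and Cdkn1c moved in opposite directions in early HRas-v12 hearts. Cdkn1a encodes p21, an inhibitor best known as a target of p53 that also answers Ras and stress signals. Its signal in control females was 3193, 4068 and 1712 and in control males 1681, 1161 and 5264. In early HRas-v12 females it was 11089 and 4204, and in early males 19725, 24995 and 12683. All 3 males and 1 female stood above every control, while the female with 4204, the array with low Esr1, lay inside the control range. The mean over both sexes was 14539 ± 8037 (SD, n = 5) against 2847 ± 1609 (SD, n = 6). The change was 2.17 on the scale of log2(signal + 32), a 4.49-fold rise (SE 0.39, adjusted p = 0.000228, limma). It kept its call under all 21 alternatives, with changes from 1.82 to 2.51. The other Cdkn1a probe set, too dim to pass the filter, had a difference of 1.33.

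In no other comparison with control was Cdkn1a called. In late HRas-v12 hearts the signal was 3870, 5015 and 6238 in females and 1917, 7741 and 1318 in males. The range of these arrays overlapped that of the controls, and the change of 0.56 was not called (95% interval -0.20 to 1.31, adjusted p = 0.327, limma). The MKK3bE arrays read 7136 and 2966 in early females, 6260 and 4184 in late females and 4285, 2705 and 3669 in late males. On the log2 scale each of the 7 lay above the mean of the controls of its sex, 1 early female by only 0.07, and neither the early change of 0.70 nor the late change of 0.76 was called (adjusted p = 0.498 and 0.214, limma). In MKK7D hearts the change was 0.04 at both times, with intervals of -1.03 to 1.11 early and -1.03 to 1.10 late.

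Within the HRas-v12 line, Cdkn1a fell by 1.61 from early to late (SE 0.39, adjusted p = 0.00928, limma), and Cdkn1c rose by 1.30 (SE 0.34, adjusted p = 0.0144). They were the 2 of 7 genes called between these times, beside 11.6% of all genes (6.91% higher late, 4.67% lower). Without HRas-v12 female early replicate 3, the female with low Esr1, the changes were -1.96 and 1.83. Both calls were lost without replicate 1, which leaves replicate 3 as the only early female (-1.26 and 0.78). Both were also lost when only the HRas-v12 groups were fitted (adjusted p = 0.123 and 0.201), and without the 6 arrays in doubt 5 of the 7 genes were called, as were 3291 of all genes.

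Cdkn1c encodes p57, a Cip/Kip inhibitor that is imprinted and best known from embryonic growth. Its control signals were 3686, 3694 and 2189 in females and 2590, 2936 and 2655 in males. In early HRas-v12 hearts they were 638 and 2854 in females and 625, 855 and 245 in males. Apart from the female with 2854, again the array with low Esr1, every array lay below every control. The change of -1.76 was a 3.38-fold fall (SE 0.34, adjusted p = 0.000438, limma) and kept its call under all 21 alternatives. The late HRas-v12 arrays read 2824, 1864 and 1734 in females and 3152, 982 and 3134 in males, which overlaps the controls (change -0.45, adjusted p = 0.364, limma).

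Cdkn1c was also low in MKK3bE hearts, at both times. The signals were 1004 and 1017 in early females, 1115 and 1686 in late females and 1315, 987 and 998 in late males. All 7 arrays lay below the lowest shared control. The late change was -1.23, a 2.34-fold fall (SE 0.34, adjusted p = 0.0218, limma). That call was lost without MKK3bE female late replicate 2 (-1.08, adjusted p = 0.115). The early change of -1.59, from 2 arrays against 3, did not pass (SE 0.51, adjusted p = 0.057, limma). Without the 6 arrays in doubt, none of them in these groups, the change was the same and passed (adjusted p = 0.00479). In the MKK7D line the signals were 2703, 2286 and 3516 early against 3902, 2465 and 5247 in the controls, and 2471, 2436 and 1650 late against 1995, 1195 and 2791. These groups overlapped, and the changes were -0.40 and 0.19 (adjusted p = 0.794 and 0.999, limma).

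Cdkn1b encodes p27, an inhibitor that holds resting cells in G1. Its signal lay between 2115 and 6340 on all arrays, and none of the 6 comparisons with control called it, with changes from -0.48 to 0.36. The lowest group mean was that of early male HRas-v12 hearts, 2537, against 3399 in control males. The early HRas-v12 change of -0.38 was not called (adjusted p = 0.173, limma) and became -0.64 without HRas-v12 female early replicate 3 (adjusted p = 0.0245). The other Cdkn1b probe set, below the filter, had a difference of 0.30, of the opposite sign.

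The Ink4 inhibitors were dim. Cdkn2a, which encodes p16 and, from another first exon, p19Arf, had signals of 135 to 694, and Cdkn2b, which encodes p15, of 46 to 1310. With signals near the filter level of 414.3 their values carry no statement on whether RNA was present. Cdkn2a was highest in early HRas-v12 females, at 692 and 694, while early males (288 to 567) overlapped control males (236 to 382). Cdkn2b read 859 and 971 in early MKK3bE females against 572 at most in control females. When the filter was dropped and 18193 genes were tested, neither gene was called in a comparison with control: the smallest adjusted p was 0.0912 for Cdkn2a, in early HRas-v12 hearts (change 0.70), and 0.184 for Cdkn2b, in early MKK3bE hearts (change 2.10). In that fit 22.8% and 3.74% of all genes were called in these 2 comparisons. On the MKK7D late controls Cdkn2b was 662 and 855 on the 2 arrays with high Esr1 and 71 on the third; the cause was not tested.

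**Figure D2:**
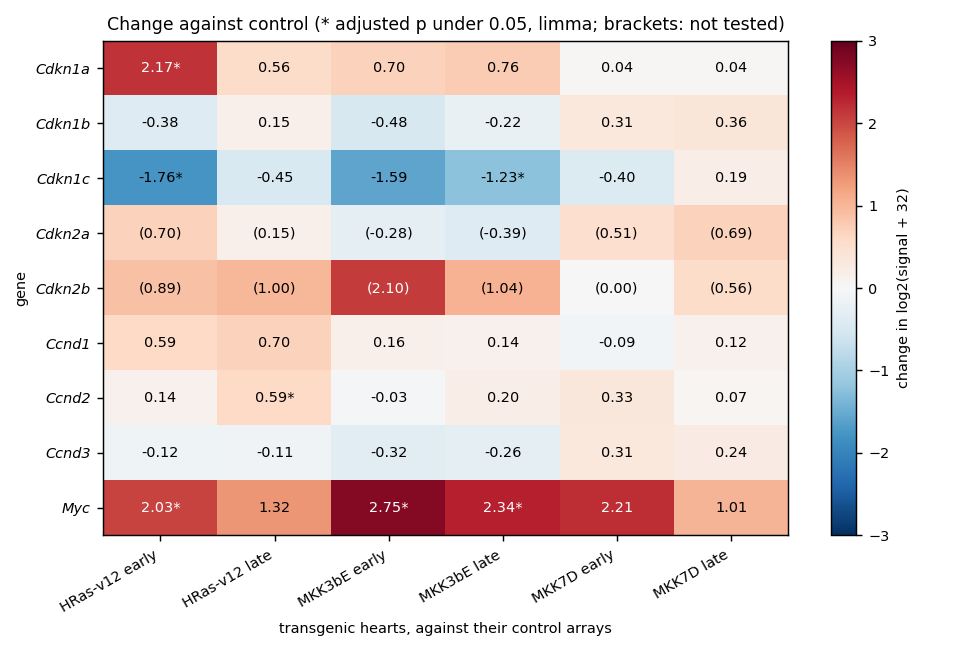
Change in log2(signal + 32) of each gene against control in the 6 comparisons. Red is higher and blue lower in transgenic hearts. Stars mark an adjusted p under 0.05 in limma, and brackets mark the 2 genes below the filter, which were not tested. Myc is positive in all 6 columns (1.01 to 2.75), and Cdkn1c is most negative in early HRas-v12 hearts (-1.76).

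The D-type cyclins were bright in every heart. Ccnd1, the form most tied to Ras and ERK signals, read 11625, 10623 and 6207 in control females and 9148, 11006 and 16388 in control males. It read 19933 and 6733 in early HRas-v12 females, and 21044, 21242 and 21116 in early males. Of these arrays, 4 exceeded every control, and the female with low Esr1 was near the lowest control. The change of 0.59 was not called (SE 0.27, adjusted p = 0.0935, limma). It was 0.98 without HRas-v12 female early replicate 3 (adjusted p = 0.00658). The 3 Ccnd1 probe sets ranged from 0.59 to 0.79.

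Late HRas-v12 hearts kept similar Ccnd1 signals, with wide spread. Females read 14958, 24334 and 21381, and males 10931, 30844 and 8755. The change was 0.70 (SE 0.25, adjusted p = 0.0756, limma) and passed without male late replicate 1 (adjusted p = 0.0477) or replicate 4 (adjusted p = 0.0183). The array with 30844 is replicate 3, one of those with low Esr1. In the other lines the Ccnd1 differences lay between -0.09 and 0.16, with 95% intervals reaching from -0.83 (early MKK7D) to 0.98 (early MKK3bE). Between early and late HRas-v12 hearts Ccnd1 differed by 0.11 (adjusted p = 0.843, limma), and by -0.64 without the 6 arrays in doubt (adjusted p = 0.0421).

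Ccnd2 was the D cyclin called in late HRas-v12 hearts. Control females read 16170, 17887 and 13950 and control males 16072, 17839 and 19174. Late HRas-v12 females read 19493, 33197 and 39141, and late males 20487, 34781 and 14422. Of the 6, 5 exceeded every shared control, and male replicate 4 lay near the lowest shared control. The males with 20487 and 34781 are replicates 1 and 3, the arrays with low Esr1. The MKK7D controls read 16335 to 19526 early and 21257 to 24145 late. The change was 0.59, a 1.51-fold rise (SE 0.17, adjusted p = 0.0277, limma). The call was lost in 8 of 22 alternatives, among them the fit without male replicate 3 (0.42, adjusted p = 0.118, limma). Without the 6 arrays in doubt, which leaves male replicate 4 as the only late male, the change was 0.30. The 7 Ccnd2 probe sets, all above the filter, had differences of 0.09 to 1.45 there. Early HRas-v12 hearts, at 14306 to 23097, were not called (change 0.14, adjusted p = 0.572).

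Ccnd3 was the steadiest of the 9 genes. Its signal stayed between 6934 and 12385 on all arrays, a span of 0.834 on the log2 scale. None of the 6 comparisons with control called it. The changes were -0.12 and -0.11 in HRas-v12 hearts, -0.32 and -0.26 in MKK3bE hearts, and 0.31 and 0.24 in MKK7D hearts. All 7 MKK3bE arrays lay below the mean of their controls (late adjusted p = 0.0817, limma; with arrays weighted by quality the late change was -0.29 and called, adjusted p = 0.0141), and all 3 early MKK7D arrays lay above theirs (adjusted p = 0.376).

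Myc had a positive change in all 6 comparisons with control and was called in 3. Its shared control signals were low: 376, 229 and 117 in females and 258, 436 and 113 in males. Early HRas-v12 females read 1105 and 279 and early males 2102, 2158 and 1464. The 4 arrays with high Esr1 were all above every shared control, and the 279 is the array with low Esr1. The change was 2.03 (SE 0.49, adjusted p = 0.00263, limma). All but 1 of the 6 control signals lie below the filter level of 414.3, so no fold is given, and the change depends on the pseudocount: it was 2.18 with the smallest and 1.71 with the largest one tried. Without HRas-v12 female early replicate 1, which leaves only the low-Esr1 female, it was 1.57 and not called. Without replicate 3 instead it was 2.5.

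In MKK3bE hearts every array exceeded every shared control for Myc. The controls of the MKK7D line read 209 to 1253 early and 490 to 1866 late, which overlaps these arrays. Early females read 1746 and 1577, late females 1793 and 897, and late males 1768, 845 and 1452. The early change was 2.75 (SE 0.74, adjusted p = 0.0244, limma), and the late change 2.34 (SE 0.49, adjusted p = 0.00386). Against the same dim controls these were 2.94 and 2.51 with the smallest pseudocount and 2.34 and 1.96 with the largest. The early call rests on 2 arrays and was lost without either of them (adjusted p = 0.15 and 0.132), or without control female replicate 1 or 2 (adjusted p = 0.0579 and 0.0844). The late call was kept whichever single array was left out, with changes of 2.09 to 2.58.

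Late HRas-v12 hearts split by array for Myc. Females read 934, 996 and 1025, all above every shared control, and males read 268, 1662 and 109. The change of 1.32 was not called (SE 0.47, adjusted p = 0.068, limma) and was 1.71 without male replicate 4 (adjusted p = 0.0115). That array, with the 109, had an Esr1 signal of 155949, while male replicate 3, with 1662, had 1327.

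The 2 MKK7D transgenic groups had the highest mean Myc signals of the 13 groups, and their own controls were spread. Early arrays read 2648, 2087 and 2825 against 209, 1253 and 492 in the controls, with no overlap. The change of 2.21 was not called (SE 0.66, 95% interval 0.86 to 3.57, adjusted p = 0.149, limma), in a comparison where 0.135% of all genes were. It was called when only the groups compared were fitted (adjusted p = 0.0387) or arrays were weighted by quality (adjusted p = 0.0017). Late arrays read 1733, 2592 and 2512 against 1432, 1866 and 490, which overlap. The 2 controls above 1000 are those with high Esr1. The late change was 1.01 (adjusted p = 0.999, limma). Without the 6 arrays in doubt it was 2.13, against replicate 10 as the only late control left (Myc 490).

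**Figure D3:**
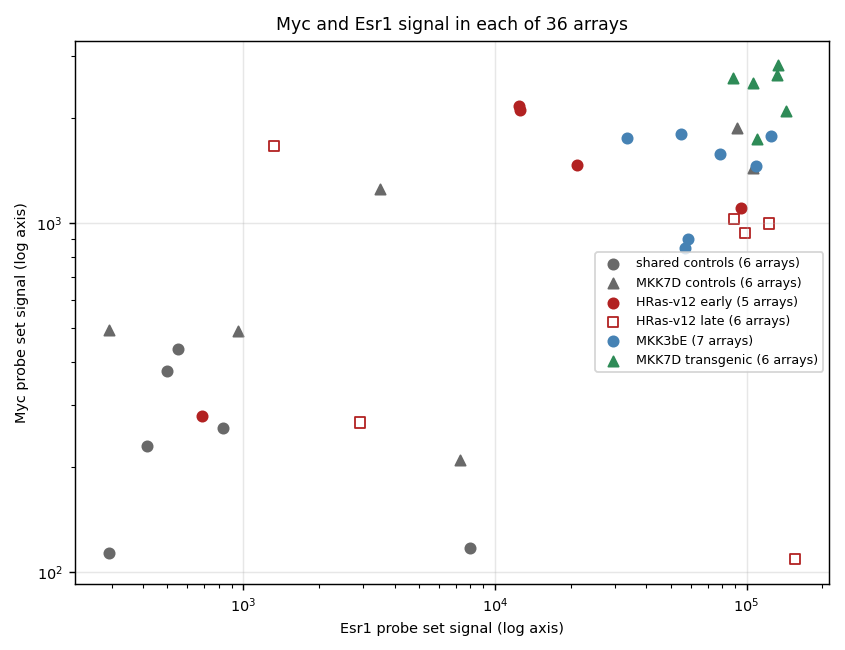
Myc signal against Esr1 signal, both on log axes, with 1 point per array (36 arrays). Grey marks controls (circles shared, triangles MKK7D), red HRas-v12 (filled early, open late), blue MKK3bE and green MKK7D transgenic hearts. The 2 grey triangles at the upper right are MKK7D late controls (Myc 1432 and 1866), and the open square at the lower right is a late HRas-v12 male (Myc 109).

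The differences between lines, times and sexes were tested directly. Between early HRas-v12 and early MKK3bE females 0 of 7 genes were called by limma (1.81% of all genes, 0 members at an unadjusted p under 0.05), and Myc was 1.51 lower in HRas-v12 hearts with an interval of -3.16 to 0.15. Between the late hearts 0 of 7 were called (3.95% of all genes), with 3 members at an unadjusted p under 0.05: Myc at -1.02, Cdkn1c at 0.77 and Ccnd2 at 0.40. Without the 6 arrays in doubt, replicate 4 is the only late HRas-v12 male left. Myc was then lower by more, at -1.80, and Cdkn1c higher, at 1.05. The early HRas-v12 and MKK7D changes in females did not differ for a called gene (0 of 7, 0% of all genes), with 1 member, Ccnd3, under 0.05 before adjustment (-0.50). Late against early, 0 of 7 were called in the MKK3bE line (0.00792% of all genes; 1 member, Ccnd2 at 0.67, under 0.05 before adjustment) and 0 of 7 for the MKK7D change (0.0158%; 0 members).

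Males and females of the early HRas-v12 group differed in level, but not past the test. The male Cdkn1a change exceeded the female one by 1.79 (95% interval 0.19 to 3.40, adjusted p = 0.212, limma), and the male Cdkn1c change differed from the female one by -1.17 (95% interval -2.56 to 0.23, adjusted p = 0.355). Here 0 of 7 genes were called beside 1.1% of all genes, and 1 member was under 0.05 before adjustment. The female group is 2 arrays, of which 1 has low Esr1. For control males against females, the late HRas-v12 change and the late MKK3bE change, limma called 0 of 7 genes each (0%, 0% and 0.00792% of all genes), with 0, 0 and 1 members under 0.05 before adjustment.

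The genes that work with these regulators were described by lists. Among 22 tested G1 partners (kinases, E-type cyclins, other inhibitors, retinoblastoma and E2F genes), 11 rose and 3 fell in early HRas-v12 hearts, where 15.1% of all genes rose and 18.7% fell. The list's median change was 0.46 against -0.04 for all genes. Cks1b, a cofactor for degrading p27, rose by 1.19 (adjusted p = 0.002, limma), Ccne2, a cyclin of the G1 to S step, by 1.10, and Tfdp1, the partner of E2F factors, by 0.72. Cdkn2d, a further Ink4 inhibitor, rose by 0.47. Tfdp2, the other E2F partner, fell by 1.17 (adjusted p = 0.000237), and E2f6, a repressing E2F, by 0.62. Tfdp2 also fell in MKK3bE hearts, by 1.36 early and 0.80 late, while E2f3 rose early by 1.09.

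Genes of S phase and mitosis were called higher mostly in early HRas-v12 hearts. There 17 of 19 tested rose and 0 fell (median 1.60), where 15.1% of all genes rose and 18.7% fell. Anln, a protein of the cleavage furrow, rose by 3.07, Birc5, which encodes survivin, by 2.41, and Ube2c, an enzyme of mitotic exit, by 2.29, while Pcna, the DNA polymerase clamp, rose by 0.88. In late HRas-v12 hearts 0 of 19 were called, and 7 of 19 fell between early and late, where 4.67% of all genes fell, Rrm2 among them by 1.55. That number was 0 without HRas-v12 female early replicate 1 and 18 without the 6 arrays in doubt. In early MKK3bE hearts Birc5 alone was called (2.53, adjusted p = 0.0373), and late MKK3bE and both MKK7D groups had 0 of 19.

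Myc target genes serve ribosome assembly, translation and polyamine synthesis. In early HRas-v12 hearts 10 of 18 rose and 1 fell, where 15.1% of all genes rose and 18.7% fell. Srm, spermidine synthase, rose by 0.80, Eif4a1, a translation helicase, by 0.73, and Nop58, a nucleolar protein, by 0.88. In MKK3bE hearts 6 of 18 rose at each time and 0 fell, where 3.48% and 5.06% of all genes rose; early examples are Ddx21 at 1.04 and Odc1, ornithine decarboxylase, at 0.57, and Ncl, nucleolin, rose by 0.38 late. In late HRas-v12 hearts and at both times of the MKK7D line, 0 of 18 were called. Of 12 Myc network genes, 2 rose and 5 fell in early HRas-v12 hearts, beside the same 15.1% and 18.7% of all genes. Fbxw7, whose product marks Myc for degradation, fell by 0.87, and Mxi1, a Max partner that opposes Myc, by 0.62. The 2 that rose were Mxd3, by 0.76, and Mlx, by 0.59.

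Targets of p53, the family to which Cdkn1a belongs, moved in both directions. In early HRas-v12 hearts 3 of 14 rose and 6 fell (median -0.27), where 15.1% of all genes rose and 18.7% fell. Btg2, an antiproliferative gene, rose by 1.41, and Eda2r, a receptor of the tumour necrosis factor family, by 0.93, while Ccng1 fell by 0.80, Sesn1 by 0.74, Trp53inp1 by 0.54 and Gadd45a by 0.51. Ccng1 also fell in late HRas-v12 and in both MKK3bE groups, by 0.42, 0.69 and 0.40. Btg2 was the 1 gene of the 5 lists called in MKK7D hearts, early, at 1.70 (adjusted p = 0.0439, limma). Between early and late HRas-v12 hearts Btg2 fell by 1.09, and 4 of 14 rose, Trp53inp1 by 0.73 among them. Without HRas-v12 female early replicate 1, 1 of 14 rose and 0 fell.

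**Figure D4:**
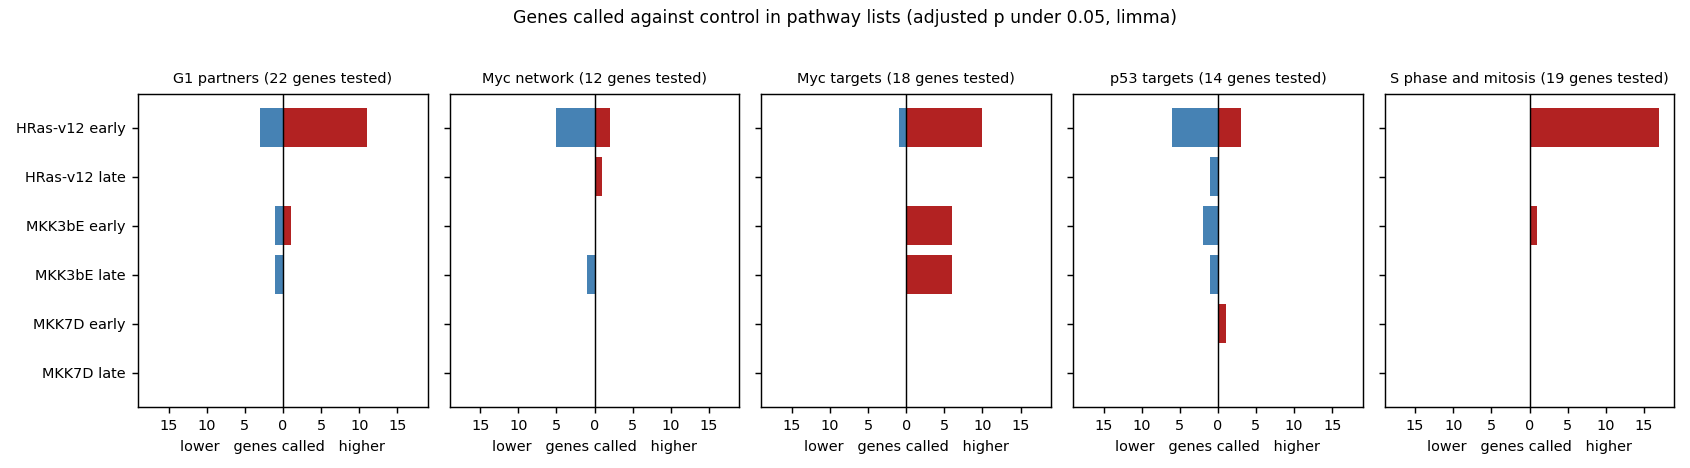
Number of genes called higher (red, to the right) or lower (blue, to the left) in limma against control, for 5 lists and 6 comparisons. The number of genes tested stands above each panel. Early HRas-v12 hearts have the longest bars in every list, 17 higher of 19 for S phase and mitosis, and MKK3bE hearts have 6 higher of 18 Myc targets at each time.

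The early HRas-v12 counts depend heavily on the 2 early female arrays. Leaving out replicate 1 keeps only replicate 3, which has low Esr1, and leaving out the 6 arrays in doubt keeps only replicate 1. Without HRas-v12 female early replicate 1, 7 of 19 S phase and mitosis genes, 1 of 22 G1 partners, 4 of 18 Myc targets and 1 of 14 p53 targets rose, and 1571 in place of 4267 genes were called in all. Without the 6 arrays in doubt the numbers rising were 19, 12, 10 and 5. In MKK3bE hearts 7 of 18 Myc targets rose early and 8 late without those arrays. None of those arrays is an MKK3bE or shared control array, and the medians stayed at 0.37 and 0.28.

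Markers of other cell types moved with the same hearts. In early HRas-v12 hearts 15.1% of all genes rose and 18.7% fell. There 8 of 11 macrophage markers rose (summed signal 62600 to 242655 against 67114 to 97721 in the controls). Of 10 endothelial markers 8 fell (44418 to 84809 against 69961 to 96731), and of 10 fibroblast markers 5 rose and 1 fell. Without HRas-v12 female early replicate 1, 1 of 11 macrophage and 0 of 10 fibroblast markers rose, and 3 of 10 endothelial markers fell. With every array kept, all 9 cardiomyocyte markers fell with a median of -0.55. Quantile normalization gave 2 lower and a median of -0.04. It sets the brightest values alike on every array, so it cannot test a fall of markers this bright. In MKK3bE hearts 4 of 10 fibroblast markers rose at each time, where 3.48% and 5.06% of all genes rose. There 0 of 11 macrophage and 0 of 10 endothelial markers were called. Without the 6 arrays in doubt, none of them in these groups, 7 of 11 macrophage markers rose late, with the median unchanged at 0.62. In late HRas-v12 hearts 8 of 9 cardiomyocyte markers fell (median -0.40) and 3 of 10 fibroblast markers rose (median 0.58). There 4.66% of all genes fell and 4.86% rose. Without those 6 arrays, which leaves 1 late male array, no call was kept and the medians were -0.31 and 0.40. After quantile normalization 0 and 3 were called, with the same limit for the cardiomyocyte markers. In the MKK7D line none of the markers in these 4 lists was called by limma at either time. Without the 6 arrays in doubt, which leaves 1 late control array, the fibroblast median was 0.60 late. The part of these markers in the results on the G1 genes was not tested, and in whole ventricle RNA fewer cells of a type and less RNA per cell cannot be told apart.

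Over the 36 arrays each tested member had genes that tracked it, given here as a description, with group, array quality and cell mix shared by all points. Myc was tracked most closely by Tgfb2 (Pearson r 0.92), Ccn2 (0.90), Fat1 (0.90), Cdc42se1 (0.88) and Tgfb3 (0.87). Cdkn1a was tracked by Timp1 (0.89), Sec61a1, S100a6, Lox and P4hb, and Cdkn1c by Gm16793 (0.89), Smim20, 4430402I18Rik, Me3 and Tle5. Ccnd1 was tracked by St14 (0.88), Phlda1, Mpeg1, Ch25h and Pea15a, and Ccnd2 by Gm2a (0.83), Itm2c, Gjc1, Galnt18 and Nucb1. Cdkn1b (Hmgn5 at 0.75, Foxo4, Flcn, Rapsn, Hbp1) and Ccnd3 (Inka2 at 0.67, Sox12, Nova1, Creb5, Mad1l1) had looser neighbours. Among the members themselves, Cdkn1a and Cdkn1c ran against each other (-0.69), and Cdkn1a and Ccnd1 ran together (0.66).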

How the data were processed

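The authors deposited linear probe set intensity values, for which the submitters' processing notes name MAS5; its version and the scaling step are not given in the sources used here. The mean signal without the outer 2% at each end was 2500 on every array. Detection calls were not used. Of 45101 probe sets, 34958 had 1 gene symbol in the annotation table, 932 several and 9211 none, and symbols were updated through the gene number to RefSeq of GRCm38.p6.

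Values were taken as log2(signal + 32), a scale that understates the change of dim genes. The brighter 60% of probe sets (mean log2 of at least 8.802) were kept, and the brightest per gene gave 12626 genes tested. limma 3.58.1 under R 4.3.3 was fitted with 13 group means over 36 arrays, with eBayes and an intensity trend (23 residual and 4.61 prior degrees of freedom). P-values were adjusted by Benjamini-Hochberg across the genes tested and called under 0.05, and 16 comparisons were made. In comparisons with both sexes the female and the male difference were averaged. The fit was tested on simulated data: of genes changed by 1 on the log2 scale it recovered 84% for early HRas-v12 and 58.5% for early MKK7D. The simulated noise was normal, with the same spread for a gene in all groups, and no array was mislabelled. These rates are averages over genes and do not give the power for single G1 genes.

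Groups came from the array titles. The labels do not say that replicates are separate animals, so p-values measure the spread between these arrays, which may be technical, and their number limits the precision. Correlations between arrays ran from 0.889 to 0.9624, and 0 columns were identical. Arrays of the same replicate number did not deviate together, so the numbers were not used as pairs. The 9 genes, the lists and the alternatives were chosen with earlier results of these data known. From each pathway list, up to 6 called genes with the smallest adjusted p per comparison could be named, and for each member the 5 genes with the highest correlation. Of the lists not described in the report, atrial muscle had 1 gene called higher in late MKK3bE hearts, and smooth muscle and pericyte markers had 2 higher and 1 lower in early HRas-v12 hearts; lymphocyte and red blood cell lists had only 2 genes tested each and 0 called against control. Hras and Map2k7 were not analysed here. Alternatives were another pseudocount (1 or 128), no filter or the upper 40%, quantile normalization, the mean of all probe sets, a fit on the groups compared, array weights, a replicate block and each array left out. Leaving out the 6 arrays in doubt was added after seeing the data.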

Additional observations from a re-analysis of the deposited data

Results flagged for a closer look

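The change of 2 genes in HRas-v12 hearts differed between the early and the late time by a direct test (limma). Cdkn1a differed by -1.61 (adjusted p = 0.00928), and Cdkn1c by 1.30 (adjusted p = 0.0144). Both calls were lost without HRas-v12 female early replicate 1 (-1.26 and 0.78), which leaves only the early female with low Esr1. Without that low-Esr1 array instead, the changes were -1.96 and 1.83. Both calls were also lost with only the HRas-v12 groups fitted (adjusted p = 0.123 and 0.201, limma). The same held with the replicate number as a block (adjusted p = 0.169 and 0.127). Late values lay nearer to the controls for both genes.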

How the results depend on the processing

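Of 2116 single-gene values under the alternatives, 2057 kept their side of the threshold (115 values that were not called changed sign), 23 lost and 35 gained a call, and 1 took the opposite sign with a call: Ccnd1, late against early HRas-v12, from 0.11 to -0.64 without the 6 arrays in doubt. The fit without these 6 arrays leaves 1 array each of early HRas-v12 females, late HRas-v12 males and MKK7D late controls. Its values and counts for comparisons with these groups rest on that array. The number of the 7 genes called moved as follows, with the number of all genes called in brackets. Without those 6 arrays it was 5 for early HRas-v12 (5335), 0 for late HRas-v12 (157), 2 for early MKK3bE (2074), 1 for late MKK7D (428), 5 for late against early HRas-v12 (3291), 2 for late HRas-v12 against late MKK3bE (814) and 3 (476) for the sex difference of the late HRas-v12 change. With only the groups compared in the fit it was 0 for late HRas-v12 (0), 2 for early MKK3bE (1288), 1 for early MKK7D (372) and 0 for late against early HRas-v12 (49). With array weights it was 2 for early MKK3bE (2054), 3 for late MKK3bE (2877, Ccnd3 added), 1 for early MKK7D (747), 3 for late HRas-v12 against late MKK3bE (2167) and 2 (1214) for the sex difference of the late HRas-v12 change. With the upper 40% of probe sets late MKK3bE had 1 (1290) and early HRas-v12 2 (3897), as that filter dropped Myc. With the replicate number as a block it was 0 for late HRas-v12 (0), early MKK3bE (155), late MKK3bE (216) and late against early HRas-v12 (46), and 1637 genes in all were called for early HRas-v12 in place of 4267. Same-numbered arrays had a median correlation of deviations of -0.006 over 23 pairs (-0.343 to 0.125), beside -0.007 over 88 pairs with different numbers. That check left out the MKK7D line, used groups of 2 or 3 arrays and cannot exclude a pairing. Leaving out 1 array each gave 2 to 5 calls for early HRas-v12 (1571 to 4864), 0 to 3 for late HRas-v12 (132 to 2507), 0 to 1 for early MKK3bE (132 to 577), 1 to 2 for late MKK3bE (541 to 1179), 0 to 4 for late against early HRas-v12 (338 to 2716), 0 to 2 for late HRas-v12 against late MKK3bE (175 to 854) and 0 to 1 (4 to 1393) for the sex difference of the early HRas-v12 change. The causes were not tested. Groups of 2 or 3 arrays and dim signals (Cdkn2a, Cdkn2b) limit what could be detected.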
